A study of Mus musculus with 8 samples.

Results

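The miRNAs miR-103 (mmu-miR-103) and miR-107 (mmu-miR-107) were followed in basal progenitors sorted from mouse embryonic cortex at day 13 (E13) and day 16 (E16) of development. They were taken as the array features that are not controls and carry either name: 2 of 611 mouse miRNAs, 4 of 1759 mouse probes, and 40 of 12220 mouse spots on each array. The pair was chosen by the E16 minus E13 difference of these same arrays, in which its scaled signal was lower at E16, so the stage differences of its probes are given as descriptions without a test. Each stage had 4 biological replicates, each on its own 1-colour array, from fewer litters than replicates. All embryos carry a wild-type tag in the sample descriptions, and no allele, transgene or treatment is named for either stage. Cells were isolated by fluorescence-activated sorting, whose gate the labels do not describe, and total RNA was labelled with the dye Cy3.

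Basal progenitors, also called intermediate progenitors, divide away from the ventricle in the developing cortex and give rise to neurons. A miRNA guides the Argonaute complex to messenger RNAs that pair with its seed, bases 2 to 8 from its 5′ end, and the targets are repressed. miR-103 and miR-107 share that seed and lie in introns of pantothenate kinase genes, whose enzymes carry out the first step of coenzyme A synthesis. They are known for repressing Dicer, the enzyme that cuts miRNA hairpins, and for roles in metabolism and insulin signalling.

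The mature sequences are shown because the probes have to tell apart 2 molecules of 23 bases with 1 difference. That difference, written from miR-103 to miR-107 and counted from the 5′ end, is G22C, next to the last base. Capitals mark the seed, and the sequences are those of RefSeq for GRCm38.p6.
miR-103-3p: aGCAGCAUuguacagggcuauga
miR-107-3p: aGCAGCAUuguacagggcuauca
The seed GCAGCAU was held by these 2 of the 1679 mature mouse sequences in the RefSeq table.

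miR-103 is made from 2 hairpins and miR-107 from 1, shown here to mark where they differ outside the measured arm. Capitals mark the mature 3p arm, which occupies bases 52 to 74 of each.
Mir103-1, in an intron of Pank3: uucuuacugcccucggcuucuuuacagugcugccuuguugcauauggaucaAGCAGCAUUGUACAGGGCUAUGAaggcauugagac
Mir103-2, in an intron of Pank2: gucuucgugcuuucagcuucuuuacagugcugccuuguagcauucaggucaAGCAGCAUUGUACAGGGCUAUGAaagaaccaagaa
Mir107, in an intron of Pank1: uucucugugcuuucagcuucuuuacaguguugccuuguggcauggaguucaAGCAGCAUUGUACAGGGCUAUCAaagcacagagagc
Over their first 86 bases, Mir103-1 and Mir103-2 were identical at 69 positions (80.2%), and Mir103-2 and Mir107 at 73 (84.9%). The 2 miR-103 hairpins give the same mature 3p sequence, so the array cannot divide its signal between the Pank2 and Pank3 loci. The levels of the host genes were not measured, and no probe on the array paired with the 5p arms over 12 or more bases.

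Each miRNA was read by 2 probes of different length, each printed as 10 spots per array. A probe is written as DNA and pairs with the 3′ part of the miRNA. The capital at probe base 2 faces the base that differs between the miRNAs.
miR-103, 18-base probe: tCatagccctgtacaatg
miR-103, 17-base probe: tCatagccctgtacaat
miR-107, 20-base probe: tGatagccctgtacaatgct
miR-107, 19-base probe: tGatagccctgtacaatgc
In mm9 coordinates as the array files list them, the 18-base miR-103 probe lies at chr2:131113844-131113861 and chr11:35595954-35595971, the Pank2 and Pank3 loci, and the 20-base miR-107 probe at chr19:34895232-34895250, the Pank1 locus. The last interval is 1 base shorter than its probe in the files.

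Set against the other member, each probe had 1 mismatch, 1 base from the end of the duplex. The 18-base miR-103 probe still paired with miR-107 over an unbroken run of 16 bases, and the 20-base miR-107 probe with miR-103 over 18 bases. Among the other 1755 mouse probes the longest run with either miRNA was 9 bases, in 4 probes of miR-200b*. Cross-signal between the 2 miRNAs was not measured directly, because no array held only one of them, and what share of either signal it makes up was not tested.

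Signal totals differed widely between arrays. The 75th percentile over 126 mouse probes measured well above background on all 8 arrays ran from 162 to 490 intensity units at E13 and from 109 to 748 at E16, and 119 to 206 miRNAs against 76 to 170 were well above background. Values are therefore given as log2 of the signal over that percentile on the same array, called the scaled level. The neural miRNAs miR-9, miR-9* and miR-124 were well above background on all 8 arrays, and their summed scaled signal was 9.47 to 16.96 at E13 and 11.2 to 18.96 at E16. None of the miRNAs listed for endothelial (2), erythroid (3), mesenchymal (5), muscle (4) or myeloid (3) cells was well above background on any array. Every E13 array lay in one slide row and every E16 array in the other, so the position on the slide and the stage cannot be told apart. With sorted cells pooled as RNA, fewer cells containing a miRNA and less of it per cell cannot be told apart.

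miR-103 was strongly measured at both stages. All 10 spots of its 18-base probe were well above background on every array, and none was saturated. Before scaling, the probe read 269, 561, 875 and 498 intensity units at E13 (replicates 1 to 4) and 694, 895, 322 and 121 at E16. The stages overlapped, with E16 replicates holding both the highest and the lowest value.

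After scaling, miR-103 was lower at E16 on every array. Its 18-base probe had scaled levels of 0.73, 0.82, 0.84 and 0.76 at E13 and of 0.19, 0.26, 0.19 and 0.16 at E16. The stages did not overlap, and the values within a stage lay close together. The means were 0.79 ± 0.050 (SD, n = 4) at E13 and 0.20 ± 0.043 (SD, n = 4) at E16, a difference of -0.59 on the log2 scale, or 1.5-fold higher at E13. The standard error was 0.033 from these arrays alone and 0.13 in limma's fit, which shares the spread over all miRNAs tested. Of the 126 probes behind the scaling, 32 lay above the percentile on each array and 15 to 27 were brighter than this probe. The probe thus lay near the divisor, and what part of its small spread follows from that was not tested.

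The 17-base miR-103 probe gave the same direction and size. Its scaled levels were -1.77, -1.76, -1.74 and -1.86 at E13 and -2.34, -2.31, -2.29 and -2.36 at E16. The SD was 0.055 at E13 and 0.032 at E16, and 68 to 95 of the 126 probes behind the scaling were brighter. No E16 array reached the lowest E13 array, and the difference was -0.55, or 1.46-fold. The 2 probes read the same RNA in the same hybridization and are not separate replicates.

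miR-107 was also lower at E16 after scaling, by less. Before scaling its 20-base probe read 154, 291, 457 and 264 intensity units at E13 and 469, 530.5, 198 and 65.2 at E16, again with overlapping stages. Its scaled levels were -0.08, -0.12, -0.10 and -0.16 at E13 and -0.38, -0.50, -0.51 and -0.74 at E16. The E13 arrays lay close together, and the E16 arrays lay below all of them with replicate 4 lowest. The means were -0.11 ± 0.033 (SD, n = 4) and -0.53 ± 0.15 (SD, n = 4), a difference of -0.42 (standard error 0.14 in limma's fit), or 1.33-fold higher at E13. This probe also lay near the divisor, with 33 to 43 of the 126 probes brighter and 32 above the percentile. What part of the small E13 spread follows from that was not tested.

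The 19-base miR-107 probe had scaled levels of -1.67, -1.74, -1.68 and -1.79 at E13 and of -2.14, -2.15, -2.19 and -2.35 at E16. Its stages did not overlap either, and E16 replicate 4 was again the lowest array. The difference was -0.49, or 1.40-fold. Levels of different probes are not set against each other, because probes of different length and sequence bind with different strength.

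**Figure D1:**
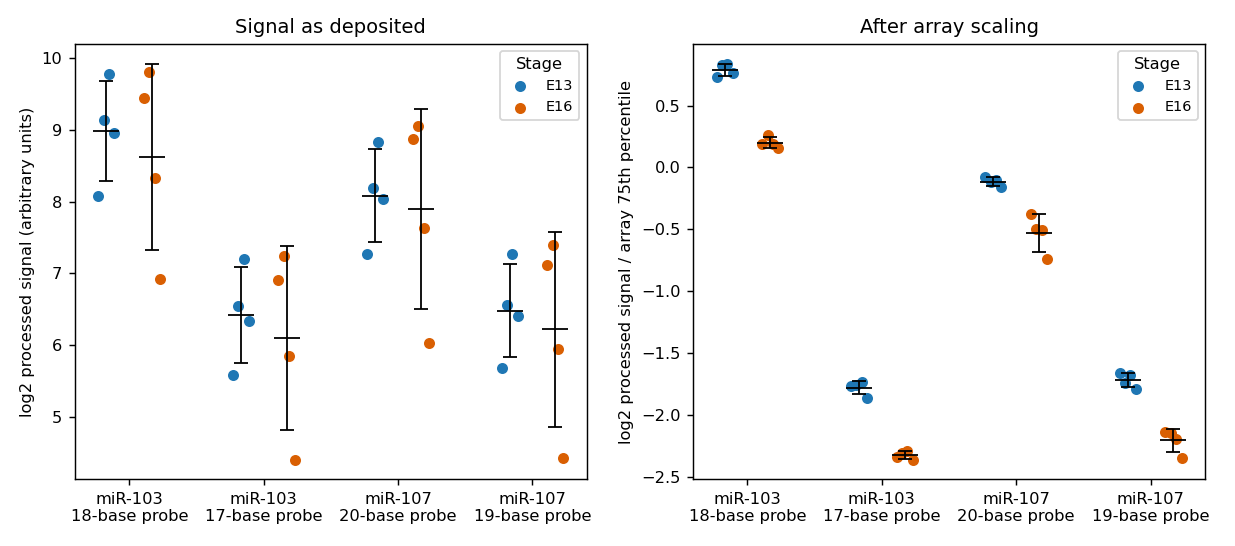
Log2 signal before scaling (left) and scaled level (right, log2 of the signal over the array's 75th percentile) of the 4 probes of miR-103 and miR-107. Points are the 4 E13 and 4 E16 arrays, with each stage's mean and SD. Before scaling the stages overlap in each probe. After scaling every E16 array lies below every E13 array in each probe, and E16 replicate 4 is the lowest array.

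Across all 153 miRNAs tested, limma called 40 lower at E16 (26.1%) and 11 higher (7.19%) at an adjusted p under 0.05. Arrays of the stages did not overlap, with E16 lower, in 47 (30.7%). The contrast chose miR-103 and miR-107, so these shares are given beside their values only as a background. The median difference of all tested miRNAs was itself -0.40, and against it miR-103 lay at -0.19 and miR-107 at -0.02. Of the 153, 51 (33.3%) had a lower difference than miR-103 and 72 (47.1%) than miR-107. In the 75 miRNAs measured well above background on each of the arrays, where the median was -0.15, miR-103 lay at -0.44 and miR-107 at -0.27 from it. Among those 75, limma called 10 lower and 9 higher. The filter for testing also let in miRNAs through E13 alone, such as miR-153, which was at the floor on every E16 array. The counts of calls moved with single arrays: without E13 replicates 1 to 4 in turn, 24, 24, 22 and 23 miRNAs were called lower, and without E16 replicate 4, 17 were called higher.

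**Figure D2:**
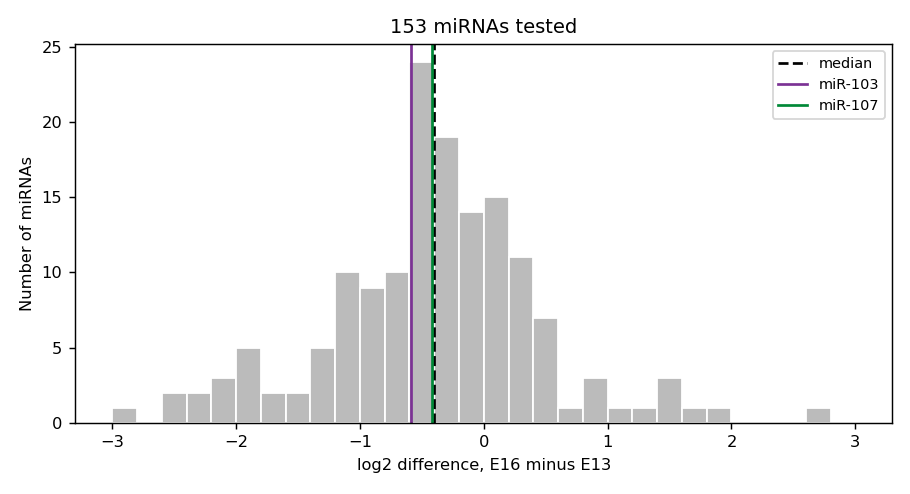
Number of tested miRNAs by their E16 minus E13 difference in scaled level (log2), with lines at miR-103, miR-107 and the median of all 153. miR-107 at -0.42 lies beside the median of -0.40, and miR-103 at -0.59 lies to its left.

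The direction of the stage difference depended on the scaling. With the 75th percentile taken over all mouse probes, most of which were dim, the difference was 0.23 for miR-103 and 0.41 for miR-107, both higher at E16, and the median of all tested miRNAs moved to 0.42. Under that scaling 16 miRNAs were called lower and 47 higher (30.7%). That percentile lay between 0.486 and 4.36 intensity units, far below the signals of either member. Without any scaling the differences were -0.36 and -0.19, with overlapping stages. Centring each array on the median of the tested miRNAs gave -0.14 for miR-103 and 0.031 for miR-107, with 23 miRNAs called lower and 30 higher. Quantile normalization gave -0.76 and -0.21, with 27 called lower and 20 higher.

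Other settings kept both members lower at E16. The deposited value table, in log2, gave -0.70 for miR-103 and -0.30 for miR-107. Scaling to 4 array control probes, chosen after the data were seen and of unstated role, gave -0.40 and -0.22. Within slide 2, which held E13 replicates 1 and 2 and E16 replicates 2 and 3, the differences were -0.55 and -0.40. The median of all tested miRNAs was -0.28 there. Within slide 3, which held E13 replicates 3 and 4 and E16 replicate 4, the members were at -0.64 and -0.61. The median of all tested miRNAs was -0.74 there, so both fell by less than the median miRNA. In all, miR-103 lay below 0 in 26 of the 27 settings and miR-107 in 25. Most of these settings keep the scaling used here, so the count is not a set of separate observations. The direction turned only in settings that change the scaling. The 4 member probes were among the 126 behind the scaling. With them left out of the percentile, an alternative added after the data were seen, the differences stayed at -0.59 and -0.42. On every array the 18-base miR-103 probe lay above the percentile and the other member probes below it. Leaving them out returned the same percentile, so this setting cannot test their part in the scaling.

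**Figure D3:**
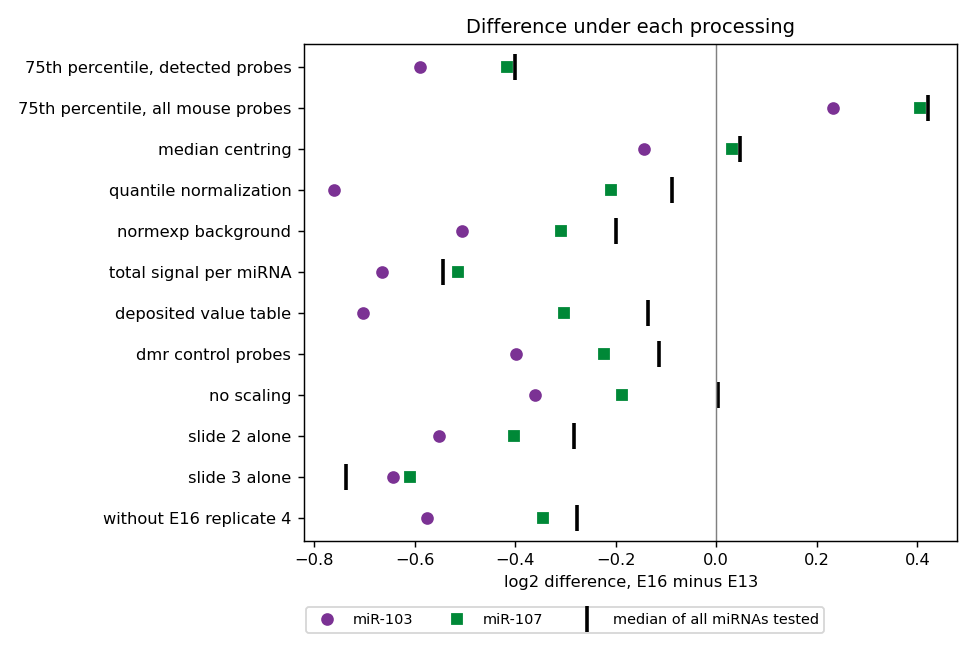
E16 minus E13 difference (log2) of miR-103, miR-107 and the median of all tested miRNAs under the setting used in the text, at the top, and 11 others. Points lie left of 0 except miR-103 (0.23) and miR-107 (0.41) under the percentile of every mouse probe, miR-107 (0.031) under median centring, and some of the medians; miR-107 lies right of miR-103 throughout.

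The ratio of the members on the same array is free of the scaling, since a factor applied to a whole array cancels. The log2 ratio of the 20-base miR-107 probe over the 18-base miR-103 probe was -0.81, -0.95, -0.94 and -0.92 at E13 and -0.57, -0.75, -0.70 and -0.89 at E16. The E16 arrays lay higher apart from replicate 4, which fell among the E13 arrays. The means were -0.90 ± 0.064 (SD, n = 4) and -0.73 ± 0.14 (SD, n = 4), a difference of 0.17 with a standard error of 0.075. It was 0.15 within slide 2, 0.034 within slide 3 and 0.23 without E16 replicate 4.

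The shorter probes showed less of a shift. Their log2 ratio was 0.10, 0.02, 0.06 and 0.07 at E13 and 0.20, 0.16, 0.10 and 0.02 at E16. The stages overlapped, and the difference was 0.06 with a standard error of 0.044. It was 0.07 within slide 2, -0.05 within slide 3 and 0.09 without E16 replicate 4. Only the change of such a ratio between arrays is read, not its level, which changes sign between the probe pairs. Under the 27 settings the E16 minus E13 difference was higher for miR-107 than for miR-103 each time, by 0.034 to 0.55. Many of these settings cannot change a ratio within an array, so the count is not a set of separate observations.

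The ratio between the probes of one miRNA also moved between arrays. The log2 ratio of the longer over the shorter probe ran from 2.48 to 2.62 over the 8 arrays for miR-103 and from 1.57 to 1.76 for miR-107. The E16 minus E13 difference of this ratio was -0.044 (standard error 0.031) for miR-103 and 0.072 (standard error 0.036) for miR-107. For the longer probe of miR-107 over that of miR-103 it was 0.17 (standard error 0.075). Only the range and the stage difference of each ratio are read, not its level.

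**Figure D4:**
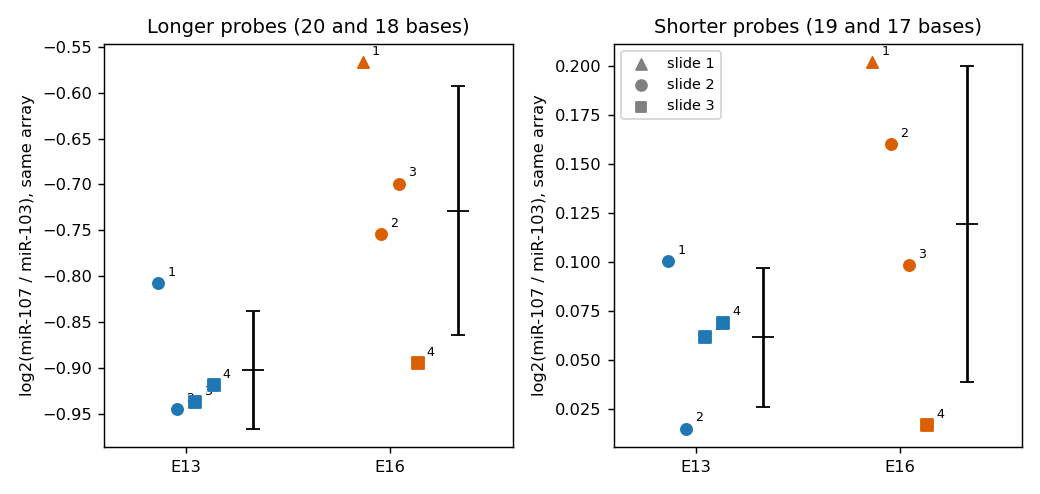
Log2 ratio of miR-107 over miR-103 on each array, for the longer and for the shorter probe of each, with each stage's mean and SD. In the longer pair 3 of the 4 E16 arrays lie above all E13 arrays and replicate 4 lies among them; in the shorter pair the stages overlap.

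miR-103 and miR-107 belong by sequence to a wider group with miR-15, miR-16, miR-195, miR-322, miR-497 and miR-503, which are known as brakes on the cell cycle through cyclins and their kinases. The group shares the letters AGCAGC, which start at base 1 in miR-103 and miR-107 and at base 2 in the others, so the seeds differ. These are shown, with the seed in capitals, to be read against the pair above.
miR-15a: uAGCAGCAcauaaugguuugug
miR-16: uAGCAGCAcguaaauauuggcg
miR-195a: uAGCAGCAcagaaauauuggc
miR-497a: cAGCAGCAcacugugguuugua
miR-503: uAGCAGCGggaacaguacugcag
Any probe of these other members paired with miR-103 or miR-107 over 7 bases at most.

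In the rest of the group no miRNA was called lower at E16. Of its 7 other members on the array 6 were tested, and 0 were called lower by limma (0 also at an unadjusted p under 0.05), 2 were called higher and 4 did not pass, beside 26.1% and 7.19% of all tested miRNAs. Their median difference was 0.31, against -0.40 over all tested. That median was -0.08 in the deposited value table and -0.57 within slide 3, each over 4 members. Without E16 replicate 1 it was -0.05, over 4 members, without E16 replicate 4 it was 0.50, and where the percentile covered every mouse probe it was 1.13.

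miR-497 and miR-195, which are made from one cluster, were higher at E16 but near the limit of detection. miR-497 had scaled levels of -5.81 on E13 replicate 3 and of the floor, -5.96, on the other E13 arrays, and of -3.66, -3.96, -3.96 and -4.62 at E16. miR-195 read -5.62 on E13 replicate 3, the floor on the other E13 arrays, and -3.99, -4.12, -4.13 and -5.14 at E16. Each stood well above background on 1 array of E13 and 3 of E16, all but E16 replicate 4, and the stages did not overlap. The fitted differences were 1.88 for miR-497 (SE 0.21, limma adjusted p = 0.00011) and 1.53 for miR-195 (SE 0.26, limma adjusted p = 0.0016), and with 3 values at the floor their sizes are not exact.

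These calls rested on few measured arrays. Without E13 replicate 3, or without E16 replicate 1, 2 or 3, neither miRNA passed the filter for testing, and 0 of the 4 members left were called higher (0 at an unadjusted p under 0.05). The second probe of miR-497 differed by 0.31 and was well above background on 2 arrays, and that of miR-195 was at the floor. With no scaling, normexp background correction, summed signal per miRNA or the control probe scaling, neither call passed.

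miR-16, the most studied member, did not pass. Its scaled levels were 0.26, 0.16, 0.18 and 0.09 at E13 and 0.78, 0.55, 0.62 and 0.01 at E16. E16 replicates 1 to 3 lay above every E13 array and replicate 4 below them. The difference was 0.32 (95% interval -0.10 to 0.74, limma adjusted p = 0.20). It passed without E16 replicate 4 (0.48, limma adjusted p = 0.016), after median centring (0.77, limma adjusted p = 0.0059) and where the percentile covered every mouse probe (1.14, limma adjusted p = 0.0021).

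miR-15a, miR-15b and miR-322 did not pass under the scaling used here, and their stages overlapped. The differences were 0.30 (limma adjusted p = 0.43), -0.07 (limma adjusted p = 0.83) and -0.40 (limma adjusted p = 0.32). Where the percentile covered every mouse probe, miR-15a was at 1.12 and miR-15b at 0.75, and both passed (limma adjusted p = 0.0073 and 0.024), while miR-322 was at 0.42 (limma adjusted p = 0.27). miR-15a also passed after median centring (0.74, limma adjusted p = 0.042), and within slide 3 alone it was lower at E16 (-0.57, limma adjusted p = 0.027). miR-503 was well above background on E13 replicate 3 alone and was not tested.

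**Figure D5:**
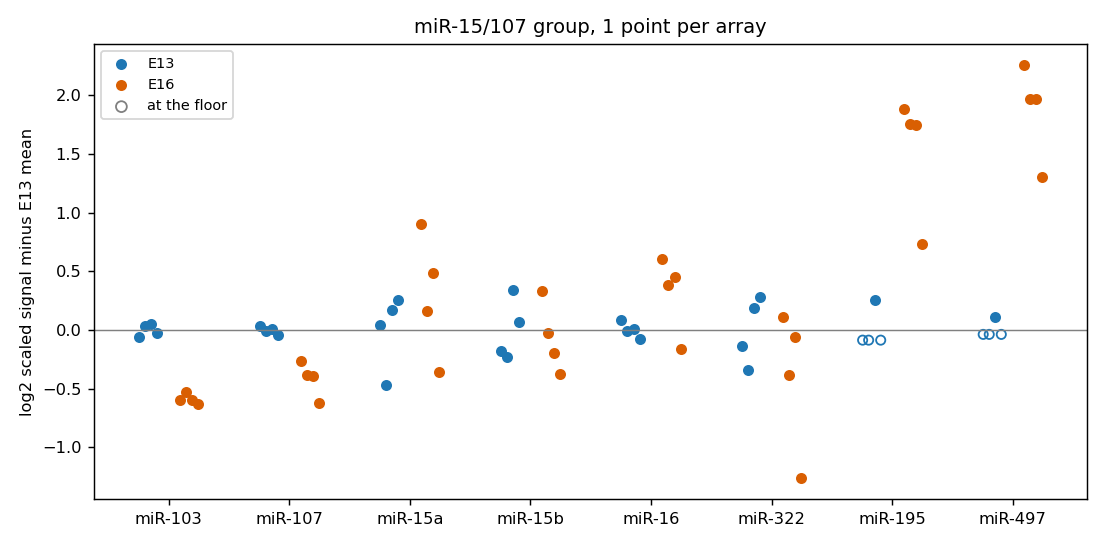
Scaled level (log2) minus its E13 mean for miR-103, miR-107 and the 6 tested members of the wider group, 1 point per array with E13 and E16 side by side, replicates 1 to 4 from left to right and open points at the floor. All 4 E16 points lie below the E13 points in miR-103 and miR-107 and above them in miR-195 and miR-497, and replicate 4 is the lowest E16 point in each miRNA plotted.

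A list of other miRNAs taken to lie in protein-coding genes was examined as the nearest counterpart in genome position. Of 48 listed, 40 were matched by probe sequence and name to RefSeq loci, each within a protein-coding gene, and the others were kept as listed. Of the 48, 46 were on the array and 30 were tested: limma called 6 lower, 0 higher (1 at an unadjusted p under 0.05) and 24 did not pass, beside 26.1% and 7.19% of all tested miRNAs. Their median was -0.32, but -0.11 without E16 replicate 4, -0.66 without E16 replicate 1 and 0.50 where the percentile covered every mouse probe. The list was made with earlier results of these arrays known. Without E13 replicates 1 to 4 in turn, 3, 2, 3 and 3 were called lower.

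All 6 intronic calls were lower at E16, so the 4 with the smallest p, described here, had to be lower too. miR-449a, in Cdc20b and known from multiciliated cells, fell by 2.86 on the log2 scale (SE 0.38, limma adjusted p = 0.00033). miR-342-3p, in Evl, fell by 0.83 (SE 0.18, limma adjusted p = 0.0061), but its difference was -0.38 after median centring (limma adjusted p = 0.16) and -0.0088 where the percentile covered every mouse probe (limma adjusted p = 0.985). miR-574-3p, in Fam114a1 and also within the span of Tlr6, was called lower with a fitted difference of -1.30 (SE 0.25, limma adjusted p = 0.0031). It was well above background on 3 arrays of E13 and 1 of E16, with 2 values at the floor, so that size is not exact, and with outlier spots kept it was at -0.47 (limma adjusted p = 0.65). miR-153, in Ptprn2 and known from neurons, stood well above background on every E13 array and on no E16 array, and its E16 level was at least 2.68-fold lower. That bound sets its E13 mean against, on each E16 array, the higher of its own signal and the dimmest signal well above background. None of these 4 calls passed without scaling, with normexp or with the control probe scaling.

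The miRNAs whose scaled levels followed miR-103 and miR-107 most closely were sought by the root mean square distance between centred profiles over the 8 arrays, among 73 others measured on all of them. The nearest were miR-93 and miR-652, each at 0.107, then miR-361 at 0.126, miR-345-5p at 0.152 and miR-20b at 0.153, in log2 units. The median distance of the 73 was 0.413, and the members lay 0.126 from each other. With quantile normalization those miRNAs ranked 1, 9, 14, 3 and 2, and the members lay 0.288 apart.

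miR-93 and miR-20b belong to the miR-17 seed family, known from dividing progenitors. Of the same family, miR-20a ranked 6 of the 73 with a difference of -0.47, and miR-106b ranked 34 with 0.015. The other neighbours, miR-652, miR-361 and miR-345-5p, had differences of -0.35, -0.30 and -0.31, and none of them passed. miR-93 had scaled levels of 0.15, 0.19, 0.16 and 0.13 at E13 and of -0.18, -0.13, -0.06 and -0.25 at E16, without overlap. miR-20b read 0.37, 0.02, 0.31 and 0.29 at E13 and -0.21, -0.33, -0.10 and -0.66 at E16, also without overlap. The differences of miR-93 and miR-20b were -0.31 (limma adjusted p = 0.089) and -0.57 (limma adjusted p = 0.027). The call of miR-20b held in 14 of the 27 settings, was lost in 12 and turned direction in 1. Where the percentile covered every mouse probe, the differences of miR-93 and miR-20b were 0.51 and 0.25. The direction of miR-93 and miR-20b turned with that scaling, as did that of miR-103 and miR-107. That scaling shifts the difference of every miRNA above the floor by the same amount, so the turn does not mark likeness. All distances are descriptions over arrays that share their scaling, and the stage difference enters each of them.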

How the data were processed

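The deposited scanner files held intensity values per spot, background-subtracted by Agilent Feature Extraction 10.7.3.1 per the file headers and the submitters' processing notes, with flags for spots well above background. A deposited value table held log2 values by the authors, used as an alternative; its ranks matched the scanner values on every array (Spearman rho 1), and how it was normalized is not stated in the labels or headers. Outlier-flagged spots were left out, spots averaged per probe and divided by the array's 75th percentile over 126 probes well above background on all 8 arrays, floored at the 1st percentile (log2 -5.96), and converted to log2. The probe with the highest mean stood for its miRNA. A miRNA was tested if a probe was well above background on 4 or more arrays. E16 was compared with E13 by limma 3.58.1 in R 4.3.3 with Benjamini-Hochberg adjustment over 153 miRNAs, checked on simulated data. The number of arrays limits the precision. p-values measure the spread between these arrays, some of which share a litter.

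miR-103, miR-107 and all lists were chosen with earlier results of these data known. The text names miR-103 and miR-107, the members of the wider sequence group, the 4 intronic miRNAs called with the smallest p, and the 5 nearest profiles by root mean square distance. Beside miR-93 and miR-20b, miR-20a and miR-106b of the same seed family were added. RefSeq sequences were matched by the target of the longest probe of each miRNA, and the miRNA name served to choose among the hits. Alternatives covered the scaling, background correction, probe choice, filters, slide, replicate number as a block and leaving out each array.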

Additional observations from a re-analysis of the deposited data

Results flagged for a closer look

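In 3 of 46 sets of 4 arrays of a stage, for the miRNAs chosen for naming above, the gap of 1 array to the nearest other passed Dixon's 95% limit. Chance gives about 1 in 20, but that rate does not hold for sets with values tied at the floor. All 3 concern miR-195 and miR-497 and none concerns miR-103 or miR-107. At E13, miR-195 was at -5.62 and miR-497 at -5.81 on replicate 3, the E13 array with the most miRNAs well above background (206), while the other E13 arrays were at the floor of -5.96. With those tied, any value above the floor would have been flagged. At E16, miR-195 was at -5.14 on replicate 4, the array with the fewest (76), against -3.99 to -4.13 on the others. The part of array brightness in these values was not tested.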

How the results depend on the processing

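With the 75th percentile over all mouse probes, miR-103 (0.23), miR-107 (0.41), miR-15b (0.75) and miR-20b (0.25) were higher at E16; calls were 16 lower and 47 higher, with 5 of the sequence group higher and 2 intronic miRNAs lower and 8 higher. Median centring gave -0.14 for miR-103 and 0.031 for miR-107, with 23 lower, 30 higher, 4 of the group higher, and 3 intronic lower and 4 higher. No scaling gave -0.36 and -0.19, with 0 lower (5 at an unadjusted p under 0.05 in limma), 1 higher, 0 of the group higher and 0 intronic lower. Quantile normalization gave -0.76 and -0.21, 0.55 apart, with 20 higher and 3 intronic lower and 4 higher. Normexp gave -0.50 for miR-103, with 2 lower, 5 higher, and 0 group and 0 intronic calls. Summed signal gave -0.66 for miR-103 and 0 of the group higher. The deposited table gave -0.70 and -0.30, 0.40 apart, with 11 lower, 0 of the group higher, and 1 intronic lower and 1 higher. Requiring all 8 arrays well above background gave 10 lower, 0 of the group higher and 1 intronic lower. Slide 2 alone gave 24 lower and 3 intronic. Slide 3 alone, with 1 E16 array assumed to vary like the E13 arrays, gave -0.64 and -0.61, 0.034 apart, and -0.57 for miR-15a, with 82 lower, 2 of the group lower, 0 of it higher and 22 intronic lower. Alternatives added after seeing the data were the dimmer probe (members 0.058 apart, 20 lower, 7 higher, 0 of the group higher, 3 intronic lower) and the control probes (-0.40 and -0.22, 0 lower with 2 at an unadjusted p under 0.05 in limma, 0 higher with 4, and 0 group and 0 intronic calls). Where counts changed, the cause was not tested.

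Leaving out each array in turn gave -0.61 to -0.57 for miR-103, -0.47 to -0.35 for miR-107 and 0.12 to 0.23 for the gap between them, with 22 to 54 lower calls, 8 to 17 higher, 0 to 3 of the group higher, and 2 to 8 intronic lower and 0 to 2 higher. Replicate numbers do not pair the samples: same-numbered arrays deviated with r of -0.10, 0.07, 0.27 and -0.15. With the replicate number as a block the members stayed at -0.59 and -0.42, with 35 lower and 10 higher. Over all alternatives, the values that answer a comparison stayed within their set limits 166 times, moved past them 74 times and turned direction 3 times.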
